A study of Mus musculus with 3 samples.

Results

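VCP, also called p97, is an ATPase that pulls ubiquitin-tagged proteins out of membranes and complexes and unfolds them, and the genes described here encode VCP itself, 7 proteins that bind it or extend ubiquitin chains for it, and the enzymes NGLY1 and DDI2. The 10 genes were chosen by name (Vcp, Nploc4, Nsfl1c, Faf1, Faf2, Ubxn7, Ubxn4, Ube4b, Ngly1 and Ddi2), out of 24467 gene symbols in the deposited tables. Each of the 10 was found under its own symbol, and each reached 1 CPM (counts per 1000000 counts of a library) in every library. The samples are 5TGM1.BRE cells, an engraftable mouse multiple myeloma line that resists bortezomib, a proteasome inhibitor, and that was obtained from the bone marrow of C57BL/KaLwRij mice. The line was kept in 10 nM bortezomib, in IMDM with HEPES, sodium pyruvate, L-glutamine, penicillin-streptomycin and 20% fetal bovine serum. Drug was withdrawn 72 h or more ahead of extraction, and each sample gave RNA from 10000000 cells, so the resistance, the origin from mice and the withdrawal are common to every sample. The cell type label of replicate 1, however, does not mention the culture in bortezomib. There were 3 libraries in 1 group. The sensitive parental line was not analysed here, and nothing below is a change caused by resistance. Whether the replicates are separate cultures is not in the labels, so SDs and p-values describe how these libraries vary, and that variation may be technical only.

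Substrates reach VCP through adaptor proteins. NPLOC4 and its partner UFD1 form the main adaptor for ubiquitin-tagged proteins, and p47, the product of Nsfl1c, is an alternative adaptor used in membrane fusion. The transcription factor NFE2L1, also called NRF1, is made as a glycoprotein of the endoplasmic reticulum, drawn into the cytosol by VCP and normally degraded by the proteasome. When the proteasome is blocked, NGLY1 removes its glycans and DDI2 cuts it, and the released factor induces proteasome genes, a route by which cells are known to recover from drugs such as bortezomib.

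The libraries held 62303493, 45705994 and 59402218 counts for replicates 1, 2 and 3. Replicate 3 stood apart: chi-square tests of homogeneity gave 65.1 and 44.4 per degree of freedom against replicates 1 and 2, while replicates 1 and 2 differed by 4.0. In replicate 3 long transcripts were lower, with a median log2 difference from the other 2 libraries of 0.22 for the 2616 tested genes with a longest transcript under 2000 bases and of -0.29 for the 567 genes at 8000 bases or more. Of 10 plasma cell markers, 8 reached 1 CPM in all libraries, Tnfrsf17 did not and Cd38 was at 0. Of 30 markers of other cell types (B, T and NK, myeloid, erythroid, and stromal and endothelial cells), 1 reached it, the B cell gene Ms4a1, and 9 were at 0. Their summed level was 3.91 to 5.10 CPM, against 4504 to 4612 CPM for the plasma cell markers.

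Promoter sequence is shown first for the most and the least abundant of the genes, for Ubxn4, second in level and also with an antioxidant response element core, and for Nfe2l1, the gene of the substrate. The sequences come from RefSeq (GRCm38.p6), which gave a window for each of the 10 genes, and are printed 5′ to 3′ on the gene's strand up to the base before the annotated start site. Vcp is shown from 250 bases upstream (chr4:43000508-43000757, minus strand), with capitals for the CCAAT box (CCAAT) and for TGACGTGGC, which holds both the XBP1 site (TGACGTGG) and the overlapping antioxidant response element core (TGACNNNGC). The first is bound by NF-Y, the second by XBP1 and ATF6, and the third by NFE2L1 and its relatives together with small Maf proteins.
Vcp: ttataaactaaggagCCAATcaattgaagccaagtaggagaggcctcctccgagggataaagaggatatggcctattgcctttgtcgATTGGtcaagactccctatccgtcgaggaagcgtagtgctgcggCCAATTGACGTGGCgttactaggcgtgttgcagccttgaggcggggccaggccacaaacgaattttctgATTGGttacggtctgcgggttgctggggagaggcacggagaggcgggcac
Ddi2 is shown from 150 bases upstream (chr4:141723420-141723569, minus strand), with capitals for the GC box (GGGCGG) bound by Sp factors.
Ddi2: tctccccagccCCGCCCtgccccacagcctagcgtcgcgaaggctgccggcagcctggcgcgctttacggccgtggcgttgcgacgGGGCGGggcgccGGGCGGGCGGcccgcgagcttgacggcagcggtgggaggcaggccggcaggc
Ubxn4 is shown from 60 bases upstream (chr1:128244077-128244136, plus strand), with capitals for a match to the antioxidant response element core on the opposite strand. In GENCODE, the annotation used for gene positions, Ubxn4 starts earlier, at base 128243964, so this stretch lies inside the gene as annotated there.
Ubxn4: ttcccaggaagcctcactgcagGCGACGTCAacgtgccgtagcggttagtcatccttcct
Nfe2l1 is shown from base -220 to base -30 of the first of its listed start sites (chr11:96829998-96830188, minus strand), with capitals for the CCAAT box and the XBP1 site.
Nfe2l1: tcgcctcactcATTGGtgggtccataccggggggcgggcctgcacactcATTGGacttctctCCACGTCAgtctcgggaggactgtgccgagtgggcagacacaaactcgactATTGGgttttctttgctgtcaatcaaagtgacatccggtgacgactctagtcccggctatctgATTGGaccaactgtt

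Among the 10 genes the XBP1 site was found in the Vcp window only, where it starts at base -114, directly after a CCAAT box at base -119. Both strands of windows running from 250 bases before to 50 bases after each start were searched, and 0.676% of the 32851 windows of all genes hold this motif. The Nfe2l1 window has it as well, on the opposite strand. The antioxidant response element core was found at Vcp, Ubxn4 and Faf2, 3 of the 10 genes, and in 12.4% of all windows. At Vcp its letters are those of the XBP1 site with 1 more base. CCAAT boxes lie at Vcp, Nsfl1c and Ube4b, with 5 of them in the Vcp window, and in 37.4% of all windows. GC boxes lie at 7 of the 10 genes (Ngly1, Ddi2, Faf1, Faf2, Nsfl1c, Ubxn7 and Ube4b) and in 35.7% of all windows. The ETS site (CCGGAAG) was found at Faf2, the E-box (CACGTG) at Faf1 and Ube4b, and the heat shock element core (TTCNNGAA) at Nploc4 and Nsfl1c, against 8.86, 7.15 and 8.52% of all windows. The YY1 site (AAGATGGCG) and a 10-base NF-kappaB site were at none of the 10, and in 1.40 and 0.155% of all windows. The windows of the 10 genes had a median GC content of 61.7% and a median of 27.5 CpG dinucleotides, against 52.7% and 7 over all windows. A match describes the letters only and does not show that a factor binds there.

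**Figure D1:**
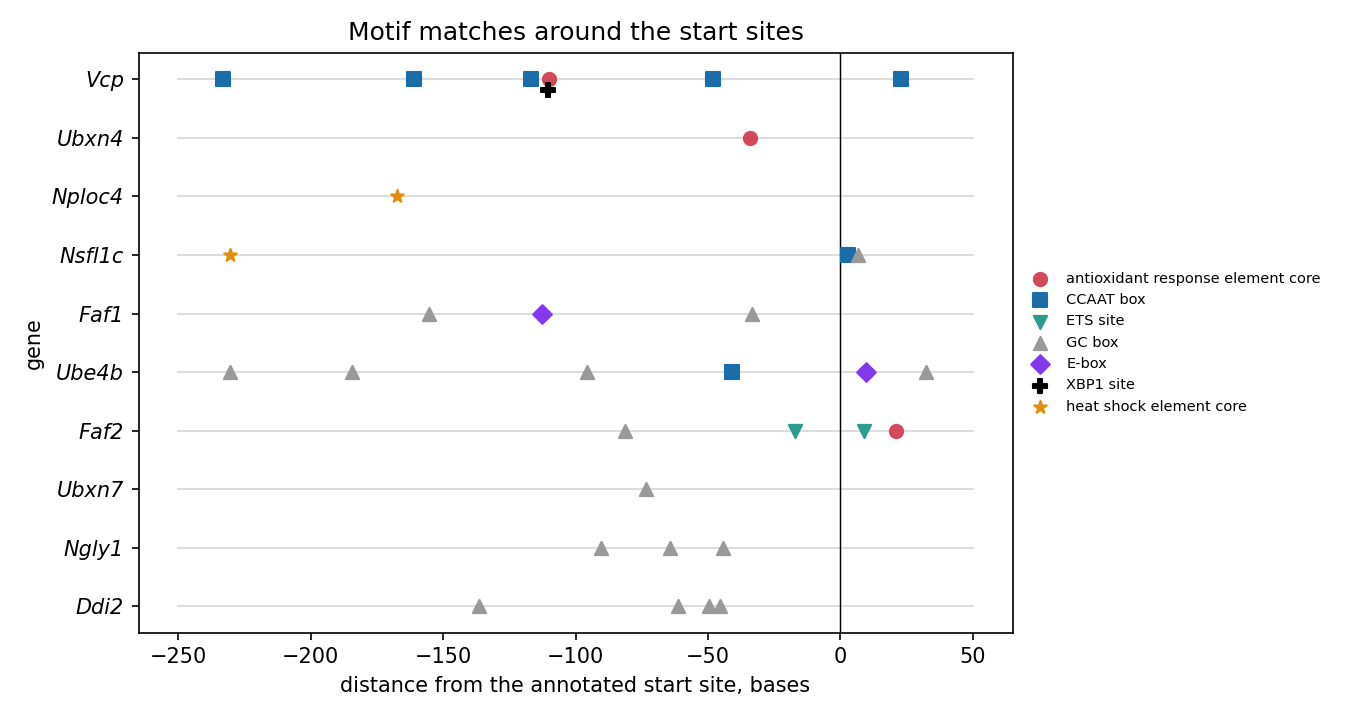
Motif matches in the windows of the 10 genes, by distance in bases from the annotated start site (x axis) and by gene in order of level (y axis), with a symbol for each kind of motif at the centre of its match. The XBP1 site marker appears in the Vcp row only, and GC boxes are spread over 7 rows.

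Levels are given as CPM per kilobase of the union of a gene's annotated exons, the scale on which different genes are set side by side, and as CPM where 1 gene is followed over libraries. A fold or ratio between single genes is summarised over the libraries by its geometric mean. Vcp was the most abundant of the 10. It was at 111, 111 and 109 CPM per kilobase in replicates 1, 2 and 3, a mean of 110.2 ± 1.44 (SD, n = 3), above 95.4% of the 9969 genes that reached 1 CPM in all libraries and have a length. The 3 libraries lay close together, with a coefficient of variation of 1.31%. Ubxn4, next in order, was at 43.3 ± 1.22 CPM per kilobase, so Vcp exceeded it 2.54-fold, or 1.66-fold with the coding length. Vcp held 38.2 ± 0.663% of the summed level of the 10 genes and was at 0.617 ± 0.0175 of the sum of the other 9 (SD, n = 3). The gene spans bases 42979963 to 43000507 of chromosome 4, minus strand (GRCm38, as all positions here). Of the distinct 50-base stretches of its annotated transcripts, 40.5% also occur in Vcp-rs, a related sequence that has no row in the count tables, so how reads from those stretches were counted is not known.

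**Figure D2:**
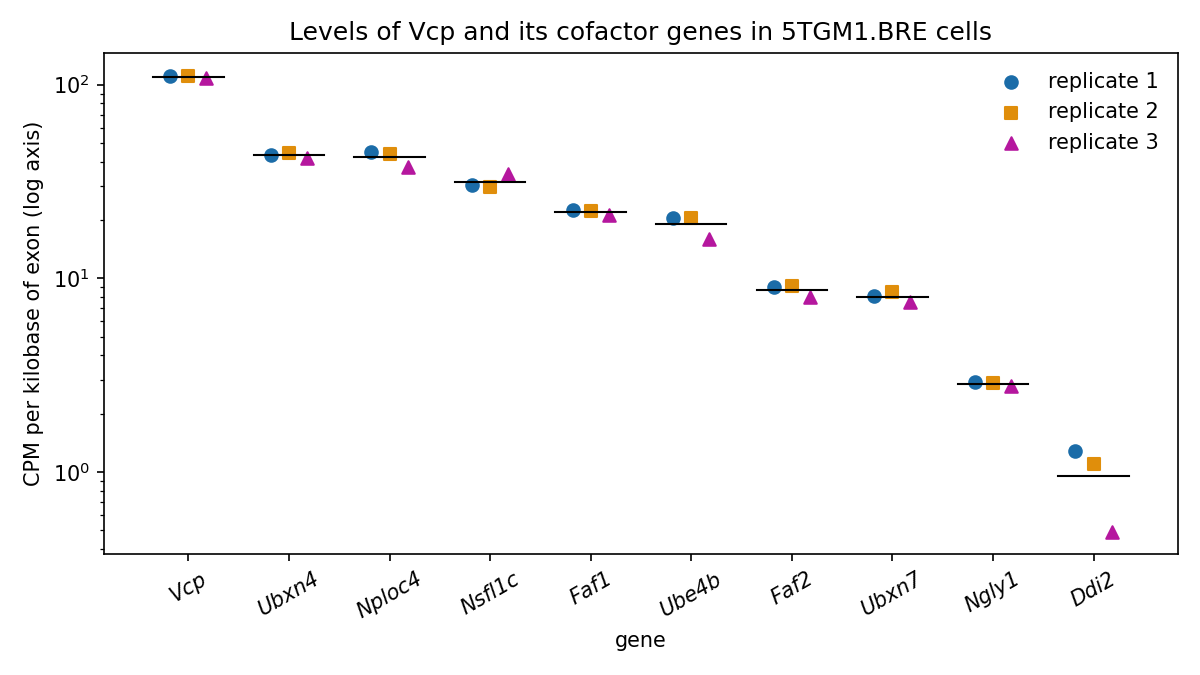
Level of each gene in CPM per kilobase of exon (y axis, log scale) by gene (x axis), with a point for each of the 3 libraries and a black line at their mean. The values run from 110.2 for Vcp down to 0.958 for Ddi2, and the replicate 3 point of Ddi2 lies apart from the other 2.

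Nploc4, which encodes a ubiquitin-binding subunit of the main adaptor, was at 45.2, 43.6 and 37.7 CPM per kilobase, a mean of 42.2 ± 3.96 (SD, n = 3). Ufd1, its partner and not 1 of the 10 genes, was at 27.7, 27.5 and 29.8, a mean of 28.3 ± 1.27 (SD, n = 3), from the row listed under the older symbol Ufd1l. Replicate 3 was thus the lowest library for Nploc4 and the highest for Ufd1. By edgeR its log2 difference from the other libraries was -0.21 for Nploc4 and 0.14 for Ufd1. With the trend of this difference on transcript length removed, the values were -0.13 and 0.02. The ratio of Nploc4 to Ufd1 was 1.63, 1.59 and 1.26 in the 3 libraries, a mean log2 ratio of 0.57 ± 0.20. With the longest transcript as the length the log2 ratio was -0.28, and with the coding length also -0.28, so the order of these partners depends on the length taken. Its gene occupies bases 120380370 to 120437708 of chromosome 11, minus strand.

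Nsfl1c, the p47 gene, was at 30.3, 29.7 and 34.5 CPM per kilobase, a mean of 31.5 ± 2.63 (SD, n = 3), highest in replicate 3. Nploc4 exceeded it 1.49-, 1.47- and 1.09-fold, a mean log2 ratio of 0.42 ± 0.25. This order too turned with the length: the log2 ratio was -0.65 with the longest transcript, which is 1631 bases for Nsfl1c and 4121 bases for Nploc4, and -0.023 with the coding length. Nsfl1c spans bases 151494182 to 151511414 of chromosome 2, plus strand. It shares 11.4% of its 50-base stretches with Gm5555, which has no row in the tables.

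Faf1, Faf2 and Ubxn7 encode adaptors with a ubiquitin-binding UBA domain and a VCP-binding UBX domain, and Ubxn4 and Faf2 encode proteins of the endoplasmic reticulum membrane that act in the degradation of proteins from that compartment. Ubxn4 was at 43.5, 44.4 and 42.0 CPM per kilobase, and Faf2 at 9.06, 9.15 and 7.99, a mean of 8.73 ± 0.647 (SD, n = 3). Ubxn4 thus exceeded Faf2 4.97-fold per kilobase, with values far from overlapping. The ratio of Faf2 to Ubxn4 was 0.201 on this scale, 0.334 with the longest transcript, 0.400 with the coding length and 0.351 without a length. Faf1 was at 22.5, 22.3 and 21.3 CPM per kilobase, a mean of 22.0 ± 0.649, and exceeded Faf2 2.53-fold (SD, n = 3). With the coding length the excess of Faf1 over Faf2 shrank to 1.09-fold. Ubxn7, whose product links VCP to cullin ubiquitin ligases, was at 8.15, 8.48 and 7.53 CPM per kilobase, a mean of 8.05 ± 0.483 (SD, n = 3). It lay 2.74-fold below Faf1 but above it, at a log2 ratio of 0.27, with the coding length, and the ratio of Ubxn7 to Faf1 was 0.907 without a length. For Ubxn7, 8846 of the 10313 bases of its longest transcript are outside the longest coding sequence. Ubxn4 lies on chromosome 1 at 128243964 to 128279378, Faf1 on chromosome 4 at 109676588 to 109963960, Faf2 on chromosome 13 at 54621784 to 54664063 and Ubxn7 on chromosome 16 at 32332257 to 32393747, all on the plus strand.

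Ube4b encodes a U-box ligase that lengthens ubiquitin chains on substrates bound to VCP. It was at 20.5, 20.5 and 15.9 CPM per kilobase, a mean of 19.0 ± 2.63 (SD, n = 3), with replicates 1 and 2 equal to 3 digits and replicate 3 apart. Ube4b spans bases 149328416 to 149426749 of chromosome 4, minus strand. The antisense genes Ube4bos1 and Ube4bos3 overlap 452 and 296 bases of its exons. Ube4bos3 had 1, 0 and 0 counts.

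The enzymes that activate NFE2L1 were the least abundant of the 10 genes. Ngly1, which encodes the cytosolic enzyme that strips N-glycans, was at 2.92, 2.87 and 2.78 CPM per kilobase, a mean of 2.86 ± 0.0729 (SD, n = 3), above 22.8% of the genes that reached 1 CPM. Ddi2, which encodes the aspartic protease, was at 1.28, 1.10 and 0.493, a mean of 0.958 ± 0.413 (SD, n = 3), above 8.32% of those genes. The Ddi2 values did not overlap those of Ngly1 in any library, and the ratio of Ddi2 to Ngly1 was 0.439, 0.383 and 0.178. Its geometric mean was 0.310, against 0.135 with the longest transcript, 0.439 with the coding length and 0.392 without a length. Ngly1 spans bases 16249280 to 16311926 of chromosome 14, plus strand, and Ddi2 bases 141677549 to 141723419 of chromosome 4, minus strand. The gene Rsc1a1, on the same strand, overlaps 1749 bases of the Ddi2 exons and had 1, 0 and 0 counts. The longest coding sequence taken for Ddi2, at 1746 bases, has nearly the length of this overlap. Whether it encodes the protease was not checked, so the values of Ddi2 with the coding length are uncertain. Without the overlapped bases Ddi2 was at 1.17 CPM per kilobase and stayed the lowest. Its paralog Ddi1 had 0 counts in each library, and 0 of their 167411705 counts sets a limit of 0.0179 CPM, for counting error only.

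Nfe2l1, the substrate's gene, was at 55.1, 52.6 and 47.6 CPM per kilobase, a mean of 51.8 ± 3.84 (SD, n = 3). It lay 2.13-fold below Vcp, 18.1-fold above Ngly1 and 58.3-fold above Ddi2, or 45.4-fold above Ddi2 without replicate 3. These 3 orders held with the longest transcript, with the coding length and without a length. The excess over Ngly1 was 9.23-fold with the longest transcript, 11.4-fold with the coding length and 13.0-fold without a length. That over Ddi2 was 68.2-, 26.1- and 33.2-fold, of which 26.1 rests on the uncertain coding length of Ddi2. Over the 19 ratios computed, each had 1 sign in 3 of 3 libraries, and an exact permutation test by sign flips, two-sided, returned p = 0.25 for each, also after Benjamini-Hochberg adjustment, which is the smallest p that n = 3 libraries allow.

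In the order of level per kilobase (Vcp, Ubxn4, Nploc4, Nsfl1c, Faf1, Ube4b, Faf2, Ubxn7, Ngly1, Ddi2), most neighbours kept apart in all 3 libraries. Ubxn4 and Nploc4 did not differ beyond their spread, since their values overlapped and Ubxn4 was the higher in 2 of 3 libraries. Faf2 and Ubxn7 overlapped as well, though Faf2 was the higher in each library. Vcp was first, and Ngly1 and Ddi2 were ninth and last, with each of 5 ways to treat length (union of exons, the same without overlapped bases, longest transcript, coding length and none). Nsfl1c moved between the second and the fifth place, and Ube4b between the fourth and the eighth.

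The spread over libraries differed widely among the 10 genes. Ddi2 had 764, 479 and 280 counts, or 12.3, 10.5 and 4.71 CPM, with exact 95% Poisson intervals of 11.4 to 13.2, 9.56 to 11.5 and 4.18 to 5.30 CPM, which cover counting error only. Replicate 3 was thus far below the other 2, and its interval did not overlap theirs. The coefficient of variation of CPM was 43.1% for Ddi2, 13.9% for Ube4b, 9.39% for Nploc4 and 8.33% for Nsfl1c. For Vcp, Ngly1, Ubxn4 and Faf1 it was 1.31, 2.55, 2.81 and 2.95%, and for Ubxn7 and Faf2 5.99 and 7.40%. By a chi-square test of each gene's 3 counts against the library totals, with Benjamini-Hochberg adjustment over 11308 genes, 9 of the 10 genes varied beyond counting noise and Ngly1 (adjusted p = 0.504) did not, against 62.2% of all genes tested. At the high counts of most of these genes, small differences pass this test.

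**Figure D3:**
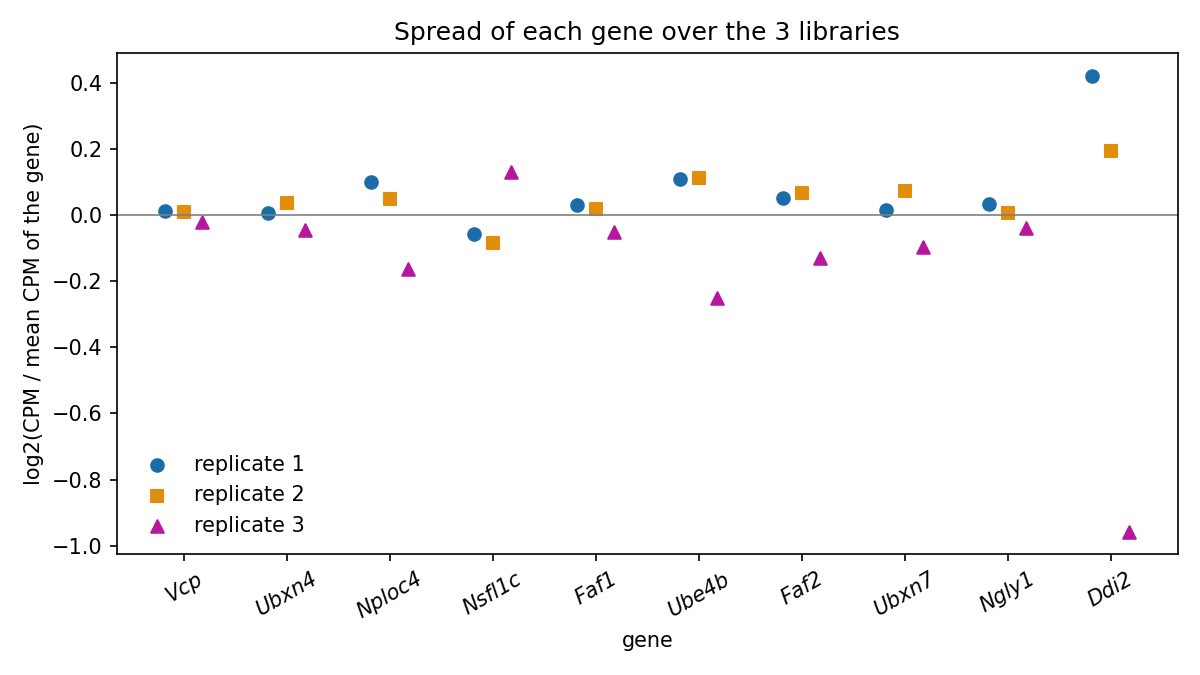
Deviation of each library from the gene's mean level, as log2 of CPM over mean CPM (y axis), by gene (x axis), with a point for each of the 3 libraries. On library totals, replicate 3 is the lowest library for each gene except Nsfl1c. How often this holds over all genes was not computed. With edgeR's scaling the log2 differences of replicate 3 from the other libraries were -0.002, -0.03, -0.03 and -0.04 for Vcp, Ngly1, Ubxn4 and Faf1. The Ddi2 point of replicate 3, at 4.71 CPM against a mean of 9.15 CPM, is the farthest from 0.

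Each library was set against the other 2 with edgeR's quasi-likelihood test, which describes how far libraries of 1 group lie apart and compares no conditions. The error comes from the other 2 libraries, which include replicate 3 when replicate 1 or 2 is tested. For Vcp the SE was 0.18 and 0.21 for replicates 1 and 2, and 0.04 for replicate 3. The numbers of calls therefore cannot be compared between libraries. In replicate 3, 1 of the 10 genes was higher, Nsfl1c, and 5 were lower, Ddi2, Ube4b, Nploc4, Faf2 and Ubxn7, while 24.8% of the 11308 genes tested were higher and 26.8% lower. In either direction this is 6 of 10 genes against 51.6% of all genes, close to the background. The median log2 difference was -0.08 over the 10 genes and 0.01 over all genes tested. In replicates 1 and 2 edgeR called 0 of the 10, against 0.0796 and 0.0531% of all genes (0.0265% higher and 0.0531% lower in replicate 1, 0.0265% in each direction in replicate 2). At an unadjusted p under 0.05 edgeR gave 1 of the 10 in replicate 1, Ddi2, and 0 in replicate 2, against 202 and 40 of the 11308 genes, and DESeq2 called 0 in either.

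Ddi2 was lower in replicate 3 by a log2 fold change of -1.25 ± 0.10 (SE, edgeR adjusted p = 1.2e-31), a 2.37-fold difference. Among the 8920 tested genes with a mean of 5 CPM or more it was the sixth lowest by this measure, and it ranked 20 from the lowest of all 11308. Its longest transcript has 9553 bases. Of these, 7807 are outside the longest coding sequence annotated for the gene, which may not be that of the protease. With the trend of the fold change on transcript length removed the log2 difference was -0.95, which ranked 40 from the lowest of 11234 genes with a length. In bulk RNA, fewer cells that express a gene and less of its RNA per cell cannot be told apart. The test has 1 residual degree of freedom, so the SE reflects the spread between replicates 1 and 2 moderated over all genes.

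Ube4b was next, lower in replicate 3 by a log2 fold change of -0.33 ± 0.04 (SE, edgeR adjusted p = 9.3e-15), and at -0.15 with the length trend removed. Nploc4 was lower by -0.21 ± 0.04 (edgeR adjusted p = 2.1e-06), and at -0.13 with the trend removed. Nsfl1c, which has the shortest longest transcript of the 10 genes, was higher by 0.23 ± 0.04 (edgeR adjusted p = 3.7e-08), and at 0.06 with the trend removed. Faf2 was lower by -0.16 (edgeR adjusted p = 0.000593) and Ubxn7 by -0.11 (edgeR adjusted p = 0.0146), and DESeq2 did not call either, with adjusted p = 0.0734 and 0.161. With the trend removed Faf2 was at -0.06, while Ubxn7 turned to 0.19. The longest transcript of Ubxn7, at 10313 bases, exceeds those of the rest of the 10. All values with the trend removed are residuals of a fit and carry no SE or test. Vcp, Ngly1, Ubxn4 and Faf1 did not pass the test, with log2 differences of 0.00, -0.03, -0.03 and -0.04.

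**Figure D4:**
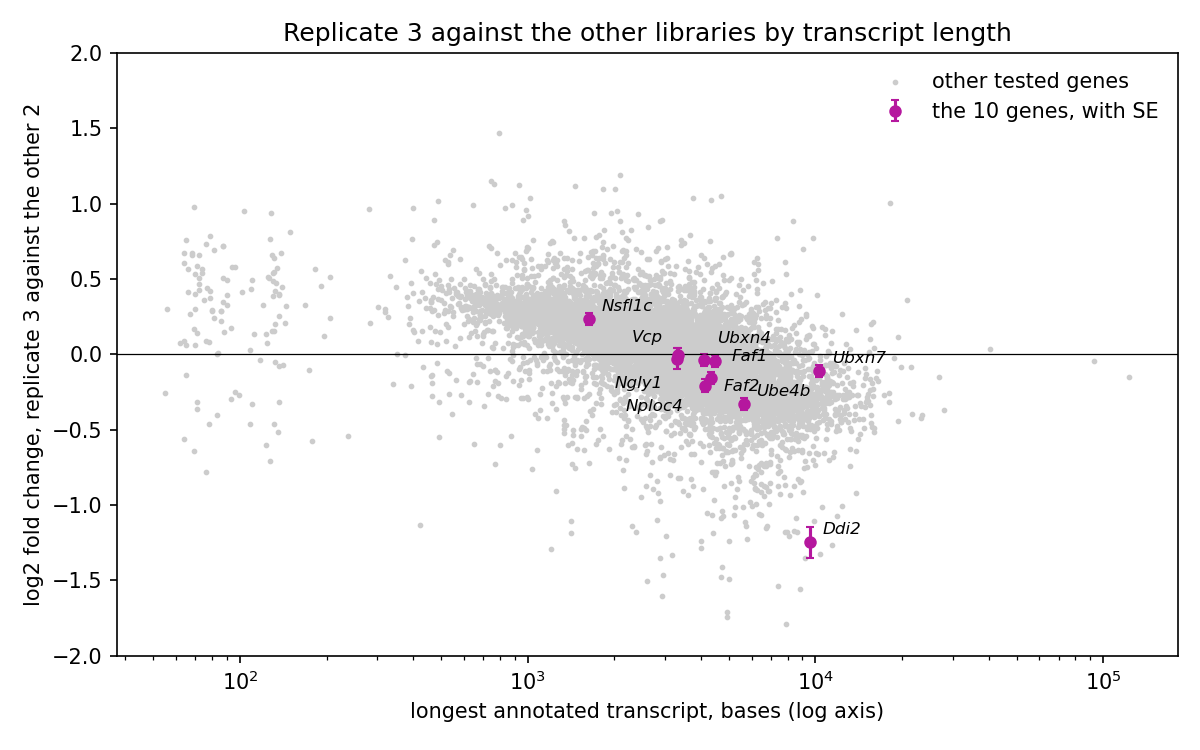
Log2 fold change of replicate 3 against the other 2 libraries (y axis) by the length of the longest annotated transcript in bases (x axis, log scale), for the tested genes with a length (grey) and the 10 genes (coloured, bars give the SE). Grey points fall from left to right, 9 of the 10 genes lie between -0.33 and 0.23, and Ddi2 lies at -1.25.

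Other proteins that bind VCP or work on its substrates were given by a list of 26 genes. In every library 24 of these reached 1 CPM, and the median over the list was 11.8 CPM per kilobase, against 20.5 for the 10 genes, 9.13 for all genes at 1 CPM or more and 7.32 for all genes tested. Selenos, which encodes an endoplasmic reticulum membrane protein that recruits VCP, was at 101, 107 and 122 CPM per kilobase, a mean of 110.0 ± 11.3 (SD, n = 3), from the row under the older symbol Vimp. Derl1, which encodes a component of the channel through which proteins leave the endoplasmic reticulum, was at 90.8 ± 3.32 and Ubxn1 at 72.7 ± 6.43 CPM per kilobase (SD, n = 3 for each). The lowest were Svip with 0, 1 and 1 counts, Ubxn10 with 1, 2 and 3 counts, Zfand1 at 1.37 ± 0.110, Yod1 at 2.43 ± 0.763 and Sprtn at 2.78 ± 0.825 CPM per kilobase (SD, n = 3 for each). Svip encodes an inhibitor of VCP-dependent degradation. In replicate 3, 11 of the 24 tested genes were higher and 8 lower by edgeR, with a median log2 difference of 0.08, while 24.8% of all genes tested were higher and 26.8% lower. DESeq2 called fewer genes of the list in each direction, as it did over all genes. Yod1, a deubiquitinase gene, and Sprtn, a DNA repair protease gene, were lower by -0.85 and -0.80 (edgeR adjusted p = 2.6e-23 and 5.1e-19), and at -0.64 and -0.69 with the length trend removed.

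Of 12 genes around Nfe2l1, 10 reached 1 CPM in all libraries. Sel1l, the scaffold of the ligase complex that also clears NFE2L1, was at 99.2, 98.2 and 85.0 CPM per kilobase, and its partner Syvn1 at 25.7 ± 0.361 (SD, n = 3). Nfe2l2, the related antioxidant factor, was at 26.1 ± 0.285 and Fbxw7, a ubiquitin ligase gene for nuclear NFE2L1, at 20.9 ± 0.778 CPM per kilobase (SD, n = 3 for each). The small Maf genes Mafg and Mafk, whose products pair with NFE2L1 on DNA, were at 10.6 ± 0.498 and 6.29 ± 0.257, and Btrc, another ligase gene, at 1.20 ± 0.103 CPM per kilobase (SD, n = 3 for each). Nfe2l3 had 2, 0 and 0 counts. In replicate 3, Maff was higher and Btrc, Nfe2l1 and Sel1l were lower, 4 of 10 tested genes by edgeR against 51.6% of all genes. DESeq2 called fewer genes of this list, as it did over all genes, and the Maff call was lost. Nfe2l1 was lower by -0.15 ± 0.04 (edgeR adjusted p = 0.00104), and at -0.03 with the length trend removed.

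**Figure D5:**
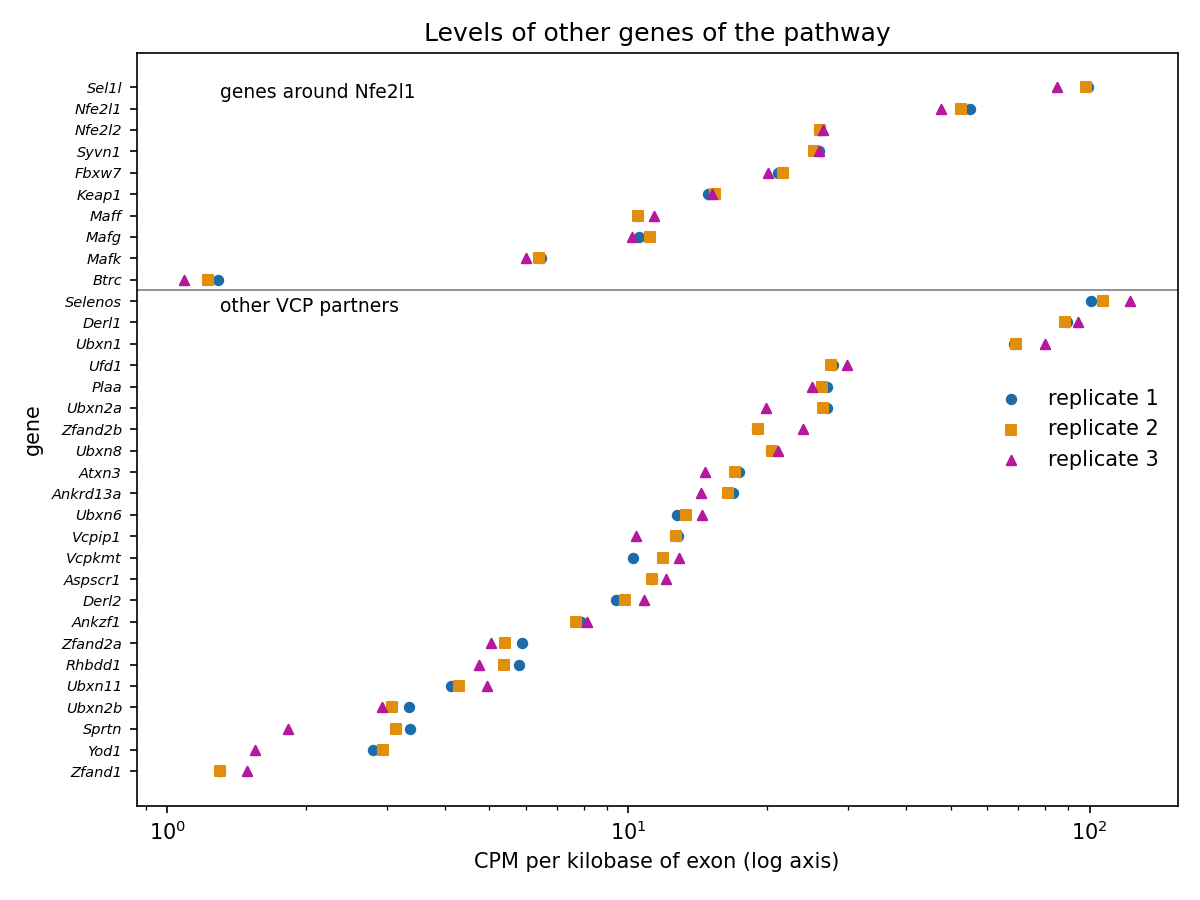
Level in CPM per kilobase of exon (x axis, log scale) of the genes around Nfe2l1 (upper block) and of most other VCP partners (lower block), with a point for each of the 3 libraries. Genes with a mean under 0.1 are among those left out, Selenos and Sel1l lead the blocks at means of 110.0 and 94.2, and the replicate 3 points of Yod1 and Sprtn lie to the left of the other 2.

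The genes most like Vcp over the 3 libraries, by the distance between log2 CPM values centred on each gene's mean, were Eif4h, Tspyl4 and Cdc6, at distances of 0.00141, 0.0017 and 0.00328 among 8050 genes at 10 CPM or more. Vcp was nearly flat, at 539, 538 and 527 CPM, and 1085 genes lay within a distance of 0.05 of it, so likeness over 3 libraries of 1 group sets few genes apart. Ddi2 was below 10 CPM and was not compared. Of the other 8 genes, Ngly1, Faf1 and Ubxn4 lay within that distance, at 0.0278, 0.0338 and 0.0354.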

How the data were processed

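The authors deposited 1 table of raw counts per gene for each of the 3 samples, without a header. Per the submitters' processing notes, bcl2fastq, cutadapt 4.2, STAR and the genome mm10 were used. The counting program, annotation and strand setting were not given in the sources used here. Counts of antisense, overlapping and duplicated genes are therefore uncertain. The cell type label of replicate 1 does not mention culture in bortezomib, while its title calls it resistant. Lengths and positions came from GENCODE M21 (GRCm38), which held 23688 of the symbols as written and 460 more by an older symbol, leaving 319 unmatched. CPM used library totals. edgeR 4.0.16 in R 4.3.3 (TMM, filterByExpr, 11308 genes, adjusted p at 0.05) was run on all genes and tested on simulated data. There the replicate 3 comparison of 11308 genes recovered 74, 82, 100 and 88% of genes set to 1.25-, 1.5-, 2- and 0.5-fold. The simulated coefficient of variation was 3%. The fitted common biological one, 9.39%, was taken over all 3 libraries, replicate 3 included, and is not the error of that comparison. Alternatives were DESeq2 1.42.0, RLE scaling, library totals, no filter, other lengths, loess removal of the length trend (span 0.3) and leaving out each replicate. Named genes are the 10, those of the ratios, the 5 highest and 5 lowest of 2 lists and the 3 genes most like Vcp. The list counts include 1 VCP partner gene that is not reported here by name or in a figure. Members and lists were chosen with earlier results of these data known. Some genes named beside them were chosen after their values were seen. Coding lengths came from GENCODE, as the longest coding sequence annotated for each gene, and that of Ddi2 is uncertain.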

Additional observations from a re-analysis of the deposited data

How the results depend on the processing

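The median level of the 10 genes was 20.5 CPM per kilobase with the union of exons, 24.5 with the longest transcript, 63.6 with the coding length and 115 CPM without a length, and leaving out each replicate gave 20.0 to 21.5. The length without overlapped bases was chosen after seeing the data. Of 19 log2 ratios, 3 changed sign with the length: Nploc4 to Ufd1 (-0.28 with the longest transcript, -0.28 with the coding length), Nploc4 to Nsfl1c (-0.65 and -0.023) and Ubxn7 to Faf1 (0.27 with the coding length). With the coding length 18 of the 19 had 1 sign in every library, and 19 under the other 5 alternatives. For replicate 3, edgeR called 2803 genes higher and 3031 lower, and DESeq2 1235 and 1781, with 3 of the 10 genes lower and 1 higher. With library totals in place of TMM the balance of edgeR calls for replicate 3 moved towards lower. For replicate 1, edgeR called 3 higher and 6 lower and DESeq2 0 and 1, and for replicate 2, 3 and 3 against 0 and 1. At an unadjusted p under 0.05 DESeq2 gave 4 genes higher in replicate 1 and 2 higher in replicate 2. With the length trend removed Ubxn7 was at 0.19 in replicate 3. The cause of these differences was not tested. With 2 libraries left no residual degree of freedom remains, so those differences carry no test. No paired analysis was possible because there is 1 group. The levels are limited by the length taken, by copies whose counting is not known and by the number of libraries. For Ddi2 counting alone gives a coefficient of variation of 4.82%, against 43.1% over the libraries.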

Other observations

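Ddi2 was not alone at the low end of replicate 3. Among genes with a mean of 5 CPM or more, 5 had a larger fall there than Ddi2, and they were named after their values were seen. Nrip1, a nuclear receptor corepressor gene, had 11.2, 9.93 and 2.997 CPM in replicates 1, 2 and 3. Tnks, which encodes a poly-ADP-ribosyltransferase whose targets are degraded, had 25.7, 24.2 and 9.61 CPM. Ptch1, the Hedgehog receptor gene, had 14.8, 14.9 and 5.81 CPM, and Cbl, a ubiquitin ligase gene, had 10.8, 10.6 and 4.38 CPM. Prrg4 had 13.8, 12.5 and 5.05 CPM. The longest transcripts of Nrip1, Tnks, Ptch1 and Cbl have 7868, 9163, 10383 and 11372 bases, while that of Prrg4 has 2872. Replicate 3 was below both other libraries for each of the 5, which follows largely from picking them by their fall there. The part of transcript length in these differences was not tested gene by gene.

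Vcp, Ddi2, Faf1 and Ube4b, 4 of the 10 genes, lie on chromosome 4. Replicate 3 was the lowest library in CPM for each of them. It was also the lowest for those of the 10 genes on other chromosomes, except Nsfl1c. A link with the chromosome was not tested. The share among all genes was not computed. In the edgeR comparison of replicate 3 the log2 differences of Vcp and Faf1 were only -0.002 and -0.04. Coefficients of variation were 1.31 and 2.95% for Vcp and Faf1 and 13.9 and 43.1% for Ube4b and Ddi2.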
